A study of Mus musculus with 4 samples.

Results

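The genes by which cells sense oxygen were described in HFSCs, hair follicle stem cells of the mouse kept in culture, after 10 passages (10p-HFSCs) and after 48 passages (48p-HFSCs). The 10 genes were the prolyl hydroxylase genes Egln1, Egln2 and Egln3, the asparaginyl hydroxylase gene Hif1an, the ubiquitin ligase gene Vhl, the HIF subunit genes Hif1a, Epas1 and Arnt, and the HIF target genes Bnip3 and Ddit4, which do not belong to glycolysis. They were chosen by gene symbol, and all 10 were found among the 24346 symbols listed. Egln3 was picked for its levels in these libraries and the others for their role with the same results known, so that their levels and differences are given as a description and without a test.

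The cells were sorted by the authors from the dorsal skin of adult C3H/HeN mice for surface CD49f and CD34 and passaged in M-CnT, a serum-free keratinocyte medium. Both groups share this origin and medium, no other treatment is named, and the oxygen level of the cultures is not given in the sources used here. Polyadenylated RNA was sequenced in 2 libraries of each group, called the 10p and the 48p libraries here. Nothing states that the libraries of a group came from separate cultures, so p-values measure only the spread between these libraries, which may be technical.

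HIF is a transcription factor made of an alpha subunit, encoded by Hif1a or Epas1, and the beta subunit encoded by Arnt. When oxygen is present, the prolyl hydroxylases mark the alpha subunit, the product of Vhl binds the mark, and the alpha subunit is degraded, while the product of Hif1an blocks its contact with coactivators. This control acts mainly on protein, whereas the values below are levels of RNA. Skin epithelium has a low oxygen supply, and HIF in it is known for its part in metabolism and wound repair.

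Levels are FPKM, read fragments scaled to the exon length of the gene and to the mapped depth of the library, so that genes can be compared per length. Differences are 48p- minus 10p-HFSCs on the log2(FPKM + 1) scale, on which the change of a low gene is understated. A gene was called at a limma adjusted p-value under 0.05 (Benjamini-Hochberg) with a difference of at least 1, among the 11018 genes that reached an FPKM of 1 in 2 or more libraries. With 2 libraries against 2, an exact two-sided permutation test of a single gene cannot go below 0.333. The relative depth of the libraries, read from the steps of low FPKM values, ranged from 46.7% in replicate 2 of 48p-HFSCs to 100% in replicate 1 of 10p-HFSCs. Replicate 2 of 48p-HFSCs stood apart with a summed FPKM of 1414953, against 581516 to 719012 in the others. At least 2-fold differences between replicates were found for 1871 tested genes in 48p-HFSCs and for 151 in 10p-HFSCs.

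The keratinocyte markers Krt5, Krt14, Trp63, Itga6 and Itgb4 were expressed in every library, with Krt5 between 1473 and 8156. Of the follicle stem cell markers, Krt15 was at 136.1 and 82.6 in the 10p and at 424.7 and 18.8 in the 48p libraries, and Cd34, Lhx2, Nfatc1, Lgr5 and Tcf7l1 were under 1 in every library, with Cd34 between 0.0925 and 0.234. Sox9 fell from 45.6 and 44.2 to 20.2 and 8.31 (difference -1.71, limma adjusted p = 0.0389). The paper reports otherwise by quantitative PCR, with Sox9 and Lhx2 increased after long culture and the expression of CD34 maintained. It also reports that most cells of both groups were positive for CD34 protein. The reason for this conflict was not tested. Itga6, the gene of CD49f, rose from a mean of 26.1 to 90.0 and Itgb4 from 52.8 to 106.8 (limma adjusted p = 0.0143 and 0.0487). Of 10 fibroblast markers, Vim and Col1a2 were lower in 48p-HFSCs. Vim was at 284.0 and 327.4 in the 10p and at 2.35 and 3.08 in the 48p libraries. Col1a2 was at 67.6 and 59.3 in the 10p libraries and listed at 0 in both 48p libraries. The summed level of the list was 353.0 and 387.7 in 10p-HFSCs against 5.88 and 4.17 in 48p-HFSCs. Nearly all of the sum in 10p-HFSCs came from Vim and Col1a2. The defining fibroblast markers Dcn, Lum and Thy1 were listed at 0 in all 4 libraries, and Pdgfra and Pdgfrb were at most 0.284. Col1a1 was at 0.903 and 0.744 in the 10p and at 0.0525 and 0.0466 in the 48p libraries, Col3a1 was at most 0.195, and Twist2 lay the other way, at 0.0441 and 0.0615 against 3.35 and 0.849. The lists of endothelial, leukocyte and melanocyte markers summed to at most 11.7 in any library. Their part in the results below was not tested. In bulk RNA, fewer cells that express a gene and less RNA per cell cannot be told apart.

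The promoters of Egln3 and Bnip3 are shown because these members were the lowest in 48p-HFSCs relative to 10p-HFSCs, and that of Ddit4 because it was the one member that met the call for higher. The bases lie upstream of the start in RefSeq and of the gene in GENCODE release M21 (GRCm38.p6, the minus strand of the chromosome for all 3), written 5′ to 3′ along the gene. Capitals mark the core of the HIF-binding motif, ACGTG or GCGTG, on either strand. The window of Egln3 is chr12:54203875-54204124, that of Bnip3 chr7:138909520-138909756 and that of Ddit4 chr10:59951835-59952020.
Egln3: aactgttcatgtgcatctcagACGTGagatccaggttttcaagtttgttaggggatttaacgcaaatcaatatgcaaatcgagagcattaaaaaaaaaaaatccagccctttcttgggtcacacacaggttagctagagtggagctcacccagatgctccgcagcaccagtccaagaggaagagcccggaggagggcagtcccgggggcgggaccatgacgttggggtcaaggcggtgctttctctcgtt
Bnip3: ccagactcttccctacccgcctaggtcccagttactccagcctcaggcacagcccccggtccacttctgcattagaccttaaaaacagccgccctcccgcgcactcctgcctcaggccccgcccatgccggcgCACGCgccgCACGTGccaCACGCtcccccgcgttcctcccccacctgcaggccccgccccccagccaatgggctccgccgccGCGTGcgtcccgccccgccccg
Ddit4: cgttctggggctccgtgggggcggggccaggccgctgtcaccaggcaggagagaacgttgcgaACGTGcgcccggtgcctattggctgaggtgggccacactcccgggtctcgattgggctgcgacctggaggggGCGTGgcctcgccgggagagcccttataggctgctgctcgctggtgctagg
In the 250 bases before the RefSeq start, the core was found once for Egln3, 229 to 225 bases upstream. Bnip3 had 5 matches between 117 and 31 bases upstream, of which a pair overlaps in the palindrome CACGTG, a sequence that other factors also bind. Ddit4 had 2 matches. Over all 32851 promoter windows of this length, 38.6% held at least 1 match and 2.6% held 4 or more, so that a single match is common. Of the 10 genes, 9 had a promoter in RefSeq, and 7 of these 9 held a match. Hif1an and Vhl held none. Epas1 had no entry. A match of 5 letters is a description of the sequence and not a site that was measured.

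Of the prolyl hydroxylase genes, Egln3 differed most between the groups, and it was picked for its levels in these libraries. Egln3 (chr12:54178981-54203860) encodes the smallest of the enzymes, and its own expression is known to be induced by HIF. It was at 69.4 and 61.6 FPKM in the 10p libraries and listed at 0 in both libraries of 48p-HFSCs. No fold change is given against values of 0. The groups lay far apart, and the difference of -6.05 (standard error 0.26) on the log2(FPKM + 1) scale was the 4th lowest of all tested genes. This difference is set by the level in 10p-HFSCs and the 1 added to each value, and it was -9.35 with a pseudocount of 0.1. Of 1492 genes at an FPKM of 50 or more in both 10p libraries, 3 had 0 in both 48p libraries, namely Egln3, Col1a2 and Rps4l. With an FPKM of at least 20 in both 10p libraries, 7 tested genes had 0 in both 48p libraries. Because Egln3 was picked for its levels, nothing is read from its rank or from these counts. None of 23 genes that every cell uses was listed at 0 in any library, and the lowest of these values was 6.13. Such genes were picked because they are expressed everywhere, so that they do not bear on why a single gene is listed at 0. The reason for the values of 0 was not tested.

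Egln1 (chr8:124908587-124949324) encodes the hydroxylase best known for setting the level of HIF1A in oxygenated cells. It was at 23.3 and 24.7 in the 10p and at 11.2 and 17.6 in the 48p libraries. Both 48p-HFSC values lay below both 10p-HFSC values, with a difference of -0.73 (standard error 0.30), which was -0.43 without replicate 1 of 48p-HFSCs and -1.30 when the FPKM of every library were rescaled to a common sum (TPM). Chromosome 8 as a whole was low in 48p-HFSCs, with a median difference of -0.60 over its 584 tested genes against -0.04 over 10942 genes with a position, and the part of this shift in the value of Egln1 was not tested. Egln2 (chr7:27158658-27166802), whose product is mostly nuclear, was at 23.1 and 32.6 in the 10p and at 22.6 and 24.5 in the 48p libraries, so that the groups overlapped (difference -0.21, standard error 0.28).

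Within a library, the shares of the 3 genes do not depend on how libraries are scaled. Their summed FPKM was 115.8 and 118.9 in the 10p and 33.9 and 42.0 in the 48p libraries. Egln3 made up 59.9% and 51.8% of this sum in 10p-HFSCs, more than Egln1 and Egln2 together. In 48p-HFSCs it made up 0%, and Egln2 with 66.9% and 58.2% was the most abundant of the 3 genes. None of the stretches of the length of a read in the annotated transcripts of Egln1, Egln2 or Egln3 occurred in a transcript of another gene, so that an exact match of a whole read would not be ambiguous between them.

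The other members that act on the HIF alpha subunit, Hif1an and Vhl, were not called. Hif1an (chr19:44562850-44576274) was at 16.1 and 15.2 in the 10p and at 13.1 and 7.05 in the 48p libraries. The groups did not overlap, but the 48p-HFSC replicates differed by 0.81 on the log2 scale, more than the group difference of -0.65 (standard error 0.34), which was -0.37 once transcript length and GC content were corrected for, -1.18 under TPM, -0.24 without replicate 2 of 48p-HFSCs and -1.05 without replicate 1, where it met the call. Vhl (chr6:113623959-113631633), the substrate receptor of the ligase, was at 8.80 and 10.9 in the 10p and at 6.91 and 10.7 in the 48p libraries, and the groups overlapped (difference -0.16, standard error 0.31).

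**Figure D1:**
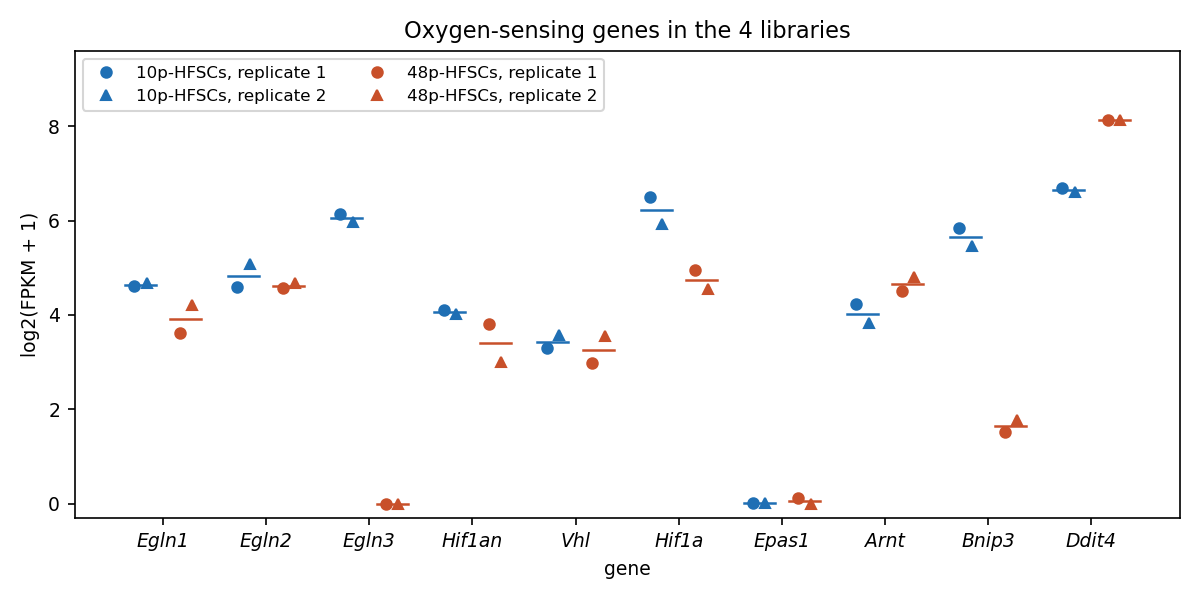
Level of the 10 oxygen-sensing genes in each library, as log2(FPKM + 1), with 2 libraries of 10p-HFSCs in blue and 2 of 48p-HFSCs in orange (circles for replicate 1, triangles for replicate 2, horizontal lines for group means). Egln3 and Bnip3 are far lower and Ddit4 is higher in both 48p-HFSC libraries, while the groups overlap for Egln2, Vhl and Epas1.

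Among the HIF subunit genes, Hif1a (chr12:73901375-73947530) was at 89.4 and 60.0 in the 10p and at 30.1 and 22.3 in the 48p libraries. Both values in 48p-HFSCs lay below both in 10p-HFSCs, the mean was 2.85-fold lower, and the difference was -1.46 (standard error 0.31). In each group replicate 1 was above replicate 2. Of the read-length stretches of its transcripts, 3.14% also occurred in other annotated genes, mostly in Gm15283 on the opposite strand, and whether reads were counted by strand is not stated.

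Arnt (chr3:95434388-95497240), whose product pairs with either alpha subunit, was at 17.7 and 13.3 in the 10p and at 21.7 and 26.9 in the 48p libraries. Its values were the higher ones in 48p-HFSCs, without overlap, with a difference of 0.63 (standard error 0.28). Epas1 (chr17:86753700-86833410), which encodes the alpha subunit best known from endothelial cells, was at 0.0095 and 0.0133 in the 10p and at 0.0916 and 0 in the 48p libraries. It was the one member that did not pass the filter on low FPKM, and a difference at this level was not detectable.

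Within libraries, Hif1a was 5.05 and 4.53 times the level of Arnt in 10p-HFSCs. In 48p-HFSCs the ratio was 1.38 and 0.829, so that the RNA of the alpha subunit, in excess at 10 passages, was about as abundant as that of its partner at 48 passages. Hif1a and Egln3 both lie on chromosome 12, whose 375 tested genes had a median difference of -0.19.

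The HIF target genes Bnip3 and Ddit4 differed between the groups in opposite directions. Bnip3 (chr7:138890836-138909519), which encodes a mitochondrial receptor for mitophagy, was at 56.6 and 42.9 in the 10p and at 1.86 and 2.43 in the 48p libraries. The groups were far apart, with a mean 23.2-fold lower in 48p-HFSCs and a difference of -4.01 (standard error 0.29). Of its read-length stretches, 24.25% also occurred in other annotated genes, among them Gm16439 and Gm6532 on the same strand and AC160336.1 and Gm45507 on the other, so that its level is less certain than those of the other members.

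Ddit4 (chr10:59949669-59951834) encodes REDD1, an inhibitor of mTORC1 that is induced by hypoxia and also by other stresses. It was at 102.8 and 96.3 in the 10p and at 277.6 and 281.4 in the 48p libraries. Replicates were close in both groups, the mean was 2.81-fold higher in 48p-HFSCs, and the difference was 1.48 (standard error 0.29). Ddit4 was 1.15 and 1.61 times the level of Hif1a in 10p-HFSCs and 9.23 and 12.6 times in 48p-HFSCs.

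In 10p-HFSCs the order of the mean levels was Ddit4, Hif1a, Egln3, Bnip3, Egln2, Egln1, Hif1an, Arnt, Vhl and Epas1. The ranges of neighbours in this order overlapped for Hif1a and Egln3, for Egln2 and Egln1, and for Hif1an and Arnt. In 48p-HFSCs the order was Ddit4, Hif1a, Arnt, Egln2, Egln1, Hif1an, Vhl, Bnip3, Epas1 and Egln3. There, neighbours overlapped for Hif1a and Arnt, Arnt and Egln2, Egln1 and Hif1an, Hif1an and Vhl, and Epas1 and Egln3. Ddit4 was the highest in both groups, whereas Egln3 went from the 3rd to the 10th place and Bnip3 from the 4th to the 8th.

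**Figure D2:**
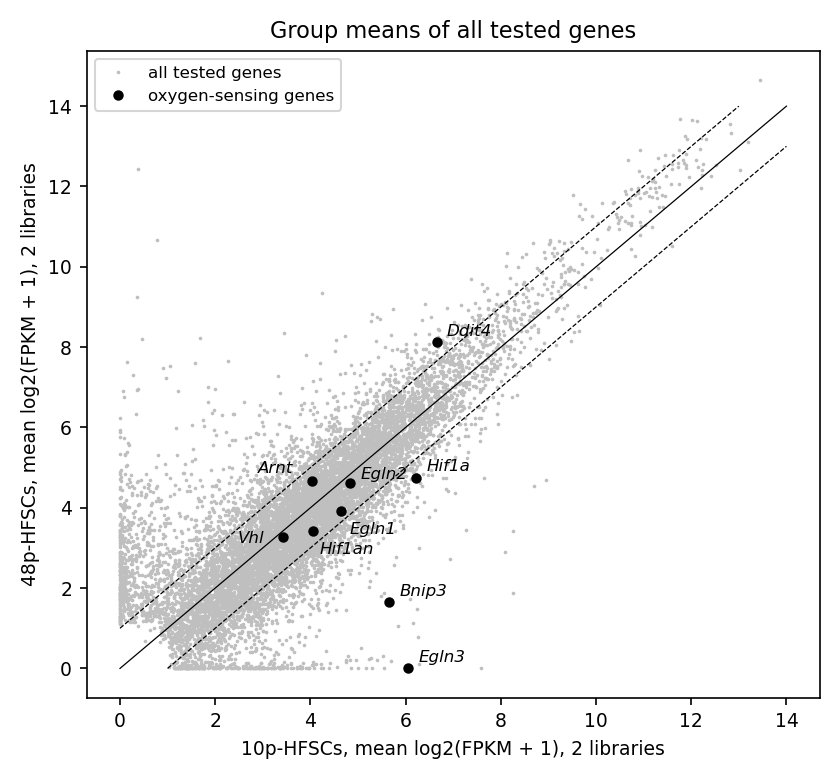
Mean log2(FPKM + 1) of 48p-HFSCs against that of 10p-HFSCs (2 libraries each) for the 11018 tested genes in grey, with the 9 oxygen-sensing genes among them in black. The solid line marks equal levels and the broken lines a difference of 1. Egln3, Bnip3 and Hif1a lie below the lower broken line and Ddit4 above the upper one.

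By the call used for all genes, 3 of the 9 members that passed the filter were lower in 48p-HFSCs (Egln3, Hif1a and Bnip3) and 1 was higher (Ddit4). Of all tested genes, 9.15% were called lower and 10.8% higher, 19.9% in all. Because the members were chosen with this contrast known, nothing is read from their count. Without overlap between groups, 5 of the 9 lay lower and 2 higher, where 34.3% of all tested genes lay lower and 31.7% higher, 65.9% in all. The median difference of the 9 was -0.65, and that of all tested genes was -0.03. Hif1a no longer met the call without replicate 2 of 48p-HFSCs or without the filter, and Hif1an met it without replicate 1. Hif1a, Bnip3 and Ddit4 did not meet it with a single 10p-HFSC library, where the difference of Egln3 was -5.97 and -6.14. Egln3 was at 0 in both 48p libraries and passed the filter only through the 10p libraries, so no support is drawn from its call.

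Under TPM, the median of all tested genes moved from -0.03 to -0.56. With it, 43.4% of the called genes were higher in 48p-HFSCs, against 54.1% of those called without rescaling. Relative to these medians, Ddit4 was at 1.51 without and 1.46 with rescaling, Arnt at 0.66 and 0.63, Hif1a at -1.43 and -1.48, and Bnip3 at -3.97 and -4.03. The raw differences of Ddit4 and Arnt were 0.90 and 0.07 under TPM, at which Ddit4 did not meet the call. Corrected for the length and GC content of transcripts, Ddit4 was at 1.15 and Hif1a at -1.24.

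**Figure D3:**
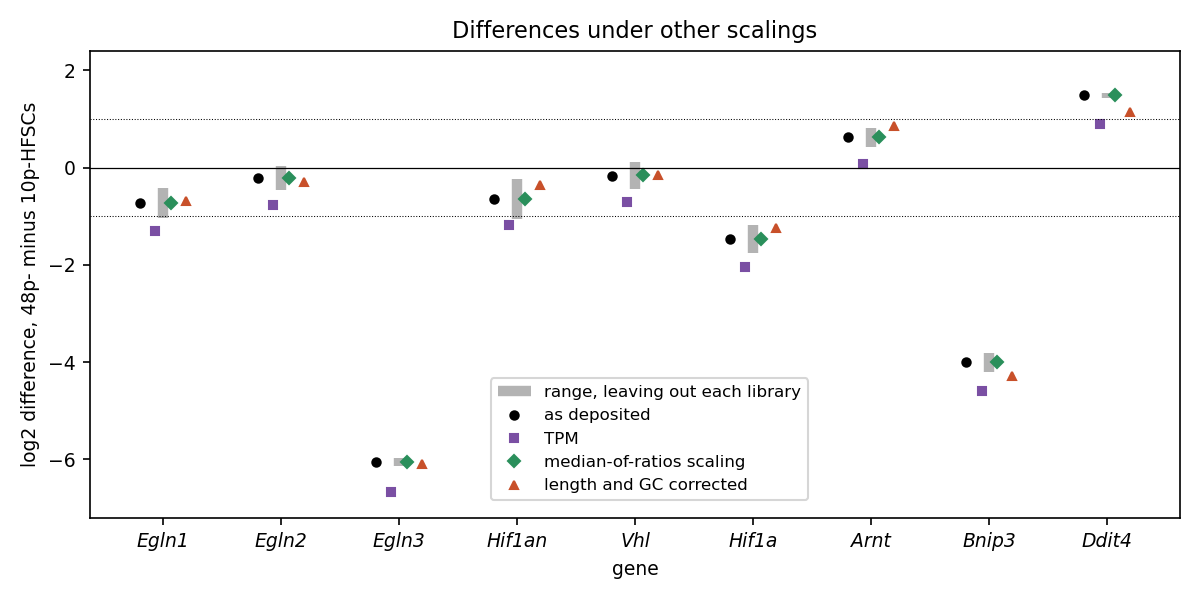
Difference between 48p- and 10p-HFSCs on the log2 scale for the 9 oxygen-sensing genes that passed the filter, as deposited (black), under TPM, under median-of-ratios scaling, and with a correction for the length and GC content of transcripts, with grey bars for the range when each library is left out. TPM shifts each of the 9 genes downward (Ddit4 from 1.48 to 0.90), and Egln3, Bnip3 and Hif1a stay below -1 under each of these settings.

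The genes nearest to Egln3 in pattern, by Euclidean distance over the log2(FPKM + 1) values of the 4 libraries, were Col1a2 (distance 0.064), Efnb2 (0.42), Prdx4 (0.63), Phlda2 (0.76) and Sumo3 (0.90). Col1a2, a chain of type I collagen, was at 67.6 and 59.3 in 10p-HFSCs and listed at 0 in both 48p-HFSC libraries. Phlda2 was at 42.2 and 49.8 and likewise listed at 0. Prdx4, a peroxiredoxin of the secretory pathway, was at 51.1 and 49.6 in the 10p and at 0 and 0.271 in the 48p libraries. A distance over 4 libraries in 2 groups selects the genes with the same high and low group and level, and no more can be read from it.

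Of the 3 tested genes next to Egln3 on each side, 2 were called lower (Akap6 and Arhgap5), where 9.15% of all tested genes were, and none was listed at 0 in any library. Both calls lay just under the limit (limma adjusted p = 0.0465 and 0.0492) and were not recomputed under other settings. Akap6 passed the filter only through the 10p libraries. Sptssa, 441.5 kb away, was at 39.6 and 57.7 in the 10p and at 65.5 and 76.8 in the 48p libraries. Eapp, 466.5 kb away, was at 33.4 and 27.5 and at 22.9 and 26.5. On the other side, the nearest tested gene was Akap6, 1023.4 kb away, which fell from 2.84 and 1.63 to 0.645 and 0.042 (difference -1.28, standard error 0.33).

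The oxygen-sensing machinery beyond the members was taken as a list of 19 genes, of which 15 passed the filter. The list holds other HIF subunits, coactivators, the partners of Vhl in its ligase and other regulators. In 48p-HFSCs 4 of the 15 were called lower and 0 higher by limma, where 9.15% of all tested genes were called lower and 10.8% higher. An unadjusted limma p-value under 0.05 was found for 6 of the 15 and for 4118 of all 11018 tested genes. The median difference of the 15 was -0.21. This list and the lists of HIF targets below were chosen with earlier results of these data known, so nothing is read from their counts. Cited2, which encodes a HIF-induced competitor for the coactivators, fell from 68.4 and 73.0 to 35.8 and 22.9 (difference -1.27, standard error 0.30, limma adjusted p = 0.0345). Crebbp, a coactivator gene, fell from 7.36 and 4.38 to 1.95 and 0.702 (difference -1.58, standard error 0.39, limma adjusted p = 0.0388). It would not have passed the filter without the 10p libraries, so no support is drawn from its call. Ado, which encodes a cysteine dioxygenase that senses oxygen, fell from 10.3 and 12.9 to 4.73 and 2.81 (limma adjusted p = 0.0307). Usp20, which encodes a deubiquitinase that acts on HIF1A, fell from 6.20 and 7.37 to 3.15 and 1.75 (limma adjusted p = 0.0471). Without replicate 2 of 48p-HFSCs, without the filter or with a single 10p-HFSC library, 0 of these were called, and under TPM only Cited2 was.

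The elongin genes Tceb2 and Tceb1, partners of Vhl in the ligase, had the highest levels of this list. Tceb2 was at 328.4 and 568.0 in the 10p and at 617.5 and 1637 in the 48p libraries, and Tceb1 was at 53.8 and 79.6 and at 99.5 and 202.6. Both were higher in 48p-HFSCs without overlap, but neither was called (limma adjusted p = 0.226 and 0.12). The 48p replicates of Tceb2 differed by 1.41 on the log2 scale, more than the group difference of 1.22, and those of Tceb1 by 1.02 against 1.11. Hif3a and P4htm, which encode a further alpha subunit and a membrane-bound prolyl hydroxylase, were at most 0.0073 in any library, and Arnt2, the paralogue of Arnt, at most 0.814.

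The list of other non-glycolytic HIF targets held 43 genes, of which 32 passed the filter. In 48p-HFSCs 8 of the 32 were called lower and 3 higher by limma, against the same 9.15% and 10.8% of all tested genes. An unadjusted limma p-value under 0.05 was found for 18 of the 32, against 4118 of all 11018 tested genes. Calls lay in both directions, and the median difference of the 32 was 0.08. The list was chosen with earlier results of these data known, so nothing is read from its counts. Igfbp3, which encodes a binding protein of insulin-like growth factors, was at 411.4 and 417.8 in the 10p and at 26.8 and 18.5 in the 48p libraries, 18.3-fold lower in the mean (difference -4.16, standard error 0.30, limma adjusted p = 0.0011). Edn1, the gene of endothelin-1, fell from 13.7 and 13.6 to 0.716 and 0.293 (difference -3.30, limma adjusted p = 0.00147). Tfrc, which encodes the transferrin receptor, fell from 208.6 and 188.5 to 19.0 and 34.9 (difference -2.90, limma adjusted p = 0.00433). Ak4, which encodes a mitochondrial adenylate kinase, was at 10.2 and 8.76 in 10p-HFSCs and listed at 0 in both 48p-HFSC libraries (limma adjusted p = 0.0011). Edn1 and Ak4, like Bhlhe41 and Zfp395 below, passed the filter only through the 10p libraries, so no support is drawn from their calls.

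The other 4 genes called lower were Vegfa, Bhlhe41, Ccng2 and Zfp395, which are named here after their values were seen. Vegfa, the gene of the vascular growth factor, fell from 15.3 and 15.9 to 1.53 and 2.18 (difference -2.55, limma adjusted p = 0.00302). Bhlhe41 was at 5.99 and 4.73 in 10p-HFSCs and listed at 0 in 48p-HFSCs, while its paralogue Bhlhe40 rose from 25.8 and 22.0 to 45.1 and 57.4 (difference 1.06, limma adjusted p = 0.0397). Both encode repressors of the circadian clock that HIF is known to induce.

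The 3 genes called higher were Bnip3l, Mxi1 and Bhlhe40. Bnip3l, the paralogue of Bnip3 and likewise a mitophagy receptor, rose from 12.2 and 13.9 to 42.6 and 62.6 (difference 1.91, standard error 0.29, limma adjusted p = 0.00891). Bnip3 was 4.63 and 3.08 times the level of Bnip3l in 10p-HFSCs and 0.0436 and 0.0388 times in 48p-HFSCs, so that the more abundant of the pair was Bnip3 at 10 passages and Bnip3l at 48. Mxi1, which encodes an antagonist of MYC, rose from 10.7 and 10.5 to 37.8 and 34.0 (difference 1.67, limma adjusted p = 0.0078). Under TPM 0 of the genes of this list were called higher and 8 lower. Fam162a, one of the 2 most abundant genes of the list, was at 242.0 and 277.5 in the 10p and at 215.2 and 371.1 in the 48p libraries, and was not called.

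**Figure D4:**
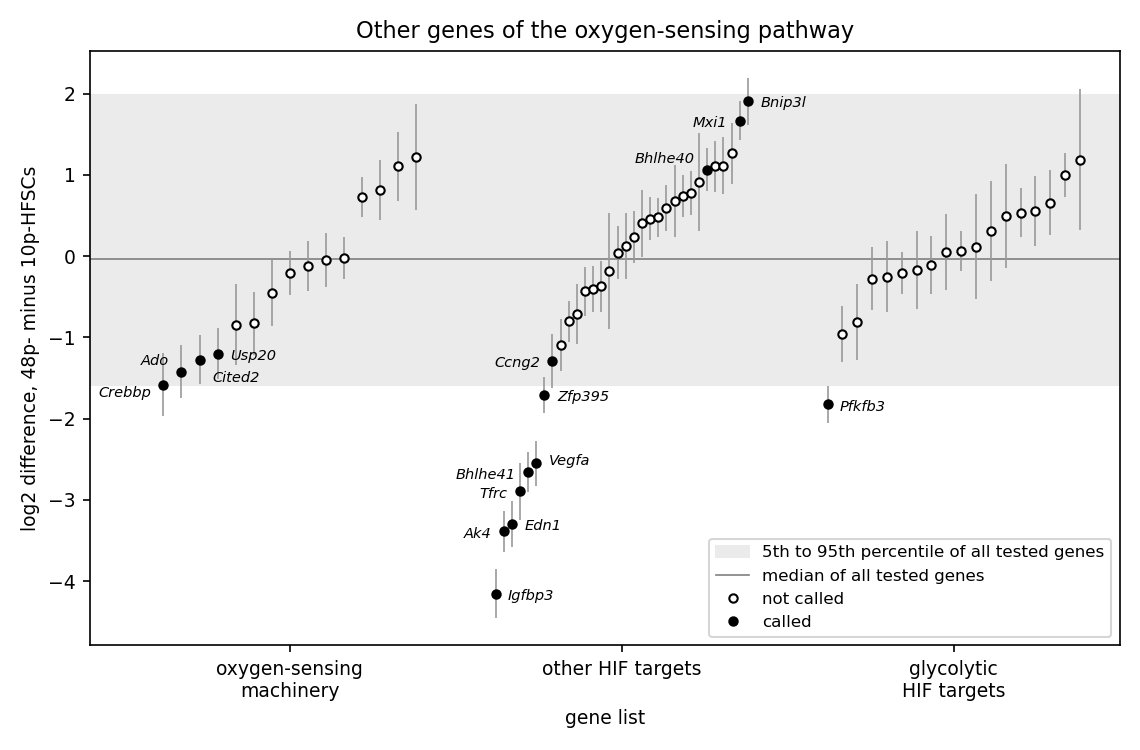
Difference between 48p- and 10p-HFSCs on the log2(FPKM + 1) scale for the tested genes of 3 lists, ordered by value, with standard errors from limma (filled points for called genes, open points for others). The grey band holds the 5th to 95th percentile of all tested genes, from -1.58 to 1.99, and the HIF targets Igfbp3, Ak4, Edn1, Tfrc, Bhlhe41 and Vegfa lie at -2.55 or lower.

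The glycolytic HIF targets were set beside these as a list of 20 genes, of which 18 passed the filter. Only Pfkfb3 was called, so that 1 of the 18 was lower and 0 higher. Of all tested genes, 9.15% were called lower and 10.8% higher. Pfkfb3 fell from 2.96 and 2.46 in 10p-HFSCs to 0.066 and 0.024 in 48p-HFSCs (difference -1.83, standard error 0.23, limma adjusted p = 0.00472). It passed the filter only through the 10p libraries, so no support is drawn from its p-value. The median difference of the 18 was 0.05. Gapdh and Pkm, the most abundant, were at 1488 and 1673.5 and at 1145 and 1057 in the 10p libraries, and at 2336 and 5525 and at 811.0 and 1749 in 48p-HFSCs. The 48p replicates of Gapdh differed by 1.24 on the log2 scale against a group difference of 1.19, and those of Pkm by 1.11 against 0.11.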

How the data were processed

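RNA of 2 libraries each of 10p- and 48p-HFSCs was measured. The authors prepared libraries with a stranded mRNA kit, sequenced single-end reads, mapped them to mm10 and deposited 1 FPKM value per gene symbol and library. The submitters' processing notes name TopHat2 2.1.1, Bowtie2 2.2.8, SAMtools 0.1.18 and Cuffdiff 2.2.1, while the paper gives other versions of Bowtie2 and SAMtools and names Cufflinks. The gene annotation, the strand setting and the treatment of multiply mapped reads are not given in the sources used here. FPKM values are not counts and carry no read totals, so no count test was run and no detection floor is given.

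FPKM values, with a pseudocount of 1, were taken to log2 and analysed with limma 3.58.1 in R 4.3.3 (variance trend), for genes that reached an FPKM of 1 in 2 or more libraries. The fit was tested on simulated data. Groups and replicate numbers come from the sample titles. Positions came from GENCODE release M21 (GRCm38, the assembly of mm10), in which 98.5% of symbols were matched, and promoters from RefSeq (GRCm38.p6). Genes named were the 10 members, in each pathway list up to 4 called genes in each direction and the 2 most abundant, the 5 genes nearest to Egln3, and cell type markers. Vegfa, Bhlhe41, Ccng2, Zfp395, Hif3a, P4htm, Arnt2, Rps4l and the neighbours of Egln3 were added after the members' values had been seen. The members and lists were chosen with earlier results of these data known. Alternatives were TPM, median-of-ratios scaling, a pseudocount of 0.1, no filter (genes above 0 in any library), a mean FPKM of at least 1, a constant variance prior, the replicate number as a block, a spline correction (4 degrees of freedom) for the length and GC content of transcripts, and leaving out each library.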

Additional observations from a re-analysis of the deposited data

How the results depend on the processing

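The count of genes called higher, 1189, was 623 under TPM, and that of genes called lower, 1008, was 637 without the filter on low FPKM. When each library was left out in turn, between 35 and 1936 genes were called higher and between 140 and 1875 lower, the lowest counts with a single 10p-HFSC library, which was assumed to vary like the other group. In these fits, between 1 and 5 oxygen-sensing genes, 0 and 6 genes of the other machinery, 2 and 14 non-glycolytic and 0 and 5 glycolytic HIF targets were called, against 4, 4, 11 and 1 with all libraries. The 4 genes of the machinery fell to 1 under TPM, 2 with a pseudocount of 0.1 and 0 without the filter, and the glycolytic count rose to 2 when the length and GC content of transcripts were corrected for. The cause was not tested. None of the 4 called members and the 12 called pathway genes that the rule names changed its direction. Of these 12 pathway genes, 12 stayed called under median-of-ratios scaling and under the length and GC correction, 6 under TPM, 7 without the filter, 7 without replicate 2 of 48p-HFSCs and 1 without either 10p-HFSC replicate. Same-numbered libraries deviated from their group means with a correlation of 0.408 across genes, and whether they were prepared together is not stated. With the replicate block, 1613 genes were called higher and 1497 lower, the same 4 oxygen-sensing genes met the call, and 5 genes of the machinery, 15 non-glycolytic and 1 glycolytic HIF targets were called. The lowest depth, in replicate 2 of 48p-HFSCs, limits the precision of low values.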
